A study of Arabidopsis thaliana with 20 samples.

Results

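The genes described here are 32 genes of Arabidopsis thaliana, the thale cress, that act in G2, mitosis and cytokinesis, of 37336 genes in the deposited table. They were taken by locus identifier: 4 CDKB kinases, 9 B-type and 5 A-type cyclins, 2 CKS subunits, 3 Aurora kinases, the spindle proteins TPX2 and EDE1, the cytokinesis proteins KNOLLE (KN), HINKEL (HIK) and MAP65-3, the activators CDC20.1 and CDC20.2, and the transcription factors MYB3R1 and MYB3R4. All 32 passed the filter on low values. RNA from inflorescences was sequenced in 5 groups of 3 libraries, to set plants that make more or less of the DVL/RTFL products, small peptides of plants known for changing organ form when overproduced, against unmodified plants. The groups were the Columbia wild type, the dominant line dvl1-1D with raised DVL1, 35S:DVL8, in which the broadly active 35S promoter drives DVL8, the dvl1 quintuple mutant (dvl1 dvl8 dvl11 rtfl11 dvl19) and the rtfl9 quintuple mutant (dvl8 dvl11 rtfl9 rtfl11 dvl19). The labels name 1 line for 35S:DVL8, the 4 mutations dvl8, dvl11, rtfl11 and dvl19 were common to both quintuple mutants, and no age or treatment is named in the labels.

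Libraries held between 22471893 and 36589877 reads assigned to genes, and a library held between 53 reads (CYCA2;1) and 2888 reads (CDC20.1) for any of the 32 genes. DVL1 had 21398 reads over the dvl1-1D libraries (560 ± 46.0 RPKM, SD, n = 3) and 0 in wild type, and DVL8 had 16357 reads in 35S:DVL8 (162 ± 10.9 RPKM, SD, n = 3) and 5 in wild type. RTFL9 and DVL19 had 0 reads in all 15 libraries, and with DVL1 at 0 in wild type too, loss of these 3 genes could not be checked. DVL8 had 2 reads in the dvl1 and 1 in the rtfl9 quintuple against 5 in wild type, too few to check its loss. DVL11 had 259 reads in dvl1 quintuple plants and 141 in the rtfl9 quintuple against 272 in wild type, so reads did not show its loss in the dvl1 quintuple. RTFL11 had 27 reads in each quintuple mutant against 21 in wild type, so reads did not show its loss in either, and the quintuple genotypes are given as labelled. Of the tissue markers, CLV3, the secreted stem cell signal of the meristem, was listed at 0 in 12 of the 15 libraries, while all 10 mature pollen markers, 9 of 10 tapetum markers and 7 of 9 meristem markers passed the filter. RPKM is the number of reads scaled by gene length and library size, so levels of different genes are compared per length.

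Entry into mitosis depends on cyclin-dependent kinases bound to A- and B-type cyclins. The CDKB kinases are particular to plants and accumulate around G2 and mitosis, CKS proteins dock the kinases to their substrates, and the anaphase-promoting complex (APC/C), switched on by CDC20, marks cyclins for destruction. Plant cells then divide by building a cell plate inside a microtubule array, the phragmoplast. Many of these genes are transcribed in a burst that MYB3R factors control through the mitosis-specific activator (MSA) element in their promoters. In an inflorescence such transcripts come mainly from meristems, young flower organs and dividing germline cells.

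Because the MYB3R factors act through that element, the windows from 250 bases before to 50 bases after the annotated start of each gene were read from the RefSeq TAIR10.1 genome and searched on both strands for the MSA core, AACGG or its complement CCGTT. The core was present in 21 of the 32 windows (65.6%), against 6765 of 27443 protein-coding windows (24.7%). At least 2 cores were present in 13 of the 32 (40.6%), against 4.89% of all windows. The longer consensus, the extended MSA element, which contains the core, was found in 8 of the 32 (25.0%) and in 130 of all windows (0.474%). The 4 windows with the most cores, ties taken by the adjusted p in dvl1-1D, are shown 5′ to 3′ along the gene's strand, with each core in capitals. They are CYCB1;2 (chr5:1861654-1861953, minus strand, 5 cores), CYCB1;1 (chr4:17624259-17624558, minus strand, 3 cores), MAP65-3 (chr5:20964488-20964787, minus strand, 3 cores) and CYCB2;2 (chr4:16901346-16901645, plus strand, 3 cores).
CYCB1;2: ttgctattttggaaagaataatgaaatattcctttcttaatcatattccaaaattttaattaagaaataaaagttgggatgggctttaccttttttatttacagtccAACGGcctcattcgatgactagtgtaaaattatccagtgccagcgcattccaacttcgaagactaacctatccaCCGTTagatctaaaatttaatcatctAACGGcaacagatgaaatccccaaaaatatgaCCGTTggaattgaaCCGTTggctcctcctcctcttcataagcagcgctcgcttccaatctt
CYCB1;1: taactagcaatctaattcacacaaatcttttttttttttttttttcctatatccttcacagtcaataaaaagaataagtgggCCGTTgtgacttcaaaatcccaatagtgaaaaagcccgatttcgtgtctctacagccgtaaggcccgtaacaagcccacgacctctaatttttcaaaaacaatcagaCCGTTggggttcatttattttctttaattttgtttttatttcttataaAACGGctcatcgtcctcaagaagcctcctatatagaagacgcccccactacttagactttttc
MAP65-3: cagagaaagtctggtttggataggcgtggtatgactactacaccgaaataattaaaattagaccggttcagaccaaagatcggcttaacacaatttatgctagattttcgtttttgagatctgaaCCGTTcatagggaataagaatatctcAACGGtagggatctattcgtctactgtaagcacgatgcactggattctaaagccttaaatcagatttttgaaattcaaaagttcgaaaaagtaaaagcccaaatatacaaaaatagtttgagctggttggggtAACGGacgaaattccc
CYCB2;2: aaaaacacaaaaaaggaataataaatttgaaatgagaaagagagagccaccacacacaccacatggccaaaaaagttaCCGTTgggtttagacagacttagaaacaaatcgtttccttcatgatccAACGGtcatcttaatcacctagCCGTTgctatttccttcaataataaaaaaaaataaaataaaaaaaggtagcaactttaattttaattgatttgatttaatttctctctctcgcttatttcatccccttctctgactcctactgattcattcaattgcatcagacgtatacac

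Counting from 0 at the annotated start, the cores of CYCB1;2 began at -143, -69, -43, -11 and 3, and those of CYCB1;1 at -168, -61 and -13. Over the 32 windows there were 46 cores, of which 33 began before the start and 28 of these within 150 bases of it. The other 41 genes of G2 and mitosis listed for comparison held the core in 21 windows (51.2%) and the extended element in 0. A match is a description of the letters in the window and not of binding.

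**Figure D1:**
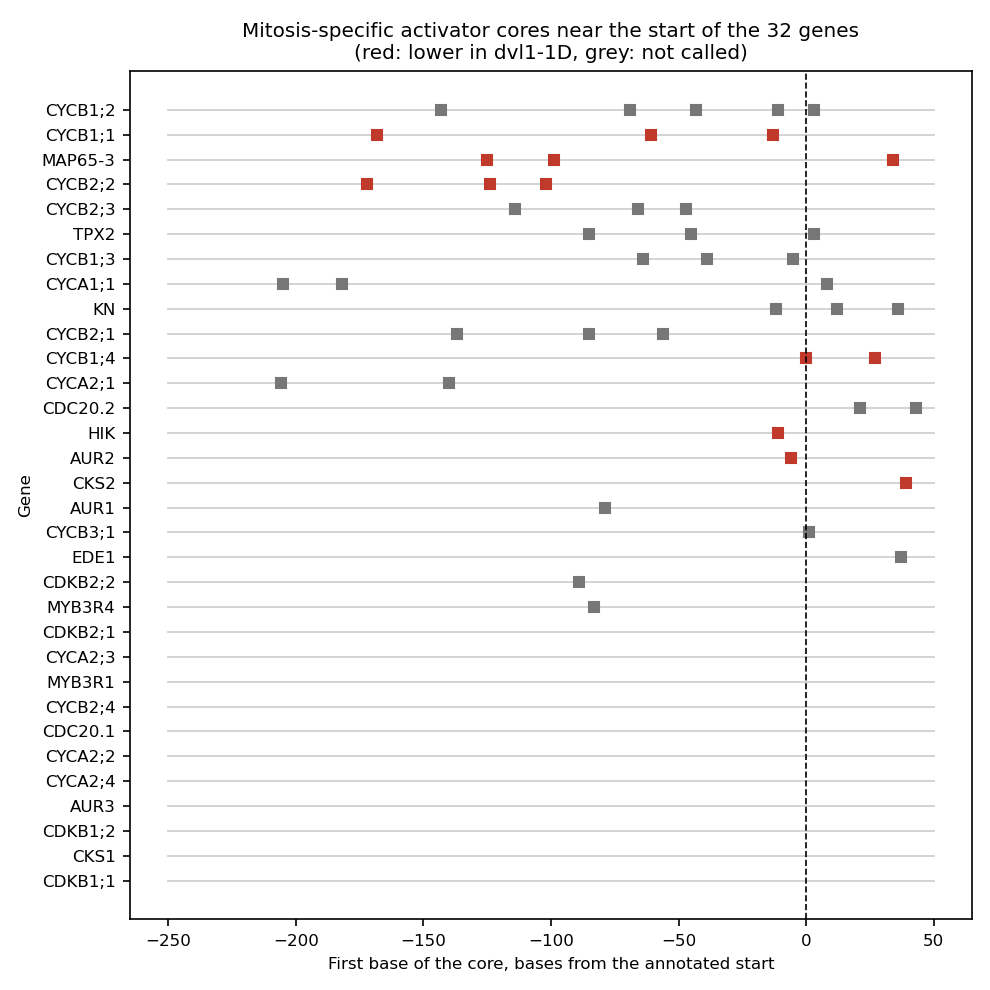
Position of every MSA core in the windows of the 32 genes, as bases from the annotated start (x axis, dashed line at the start), 1 line per gene, in red for the 12 genes lower in dvl1-1D and in grey for the other 20. The 46 cores lie in 21 genes, and 11 genes, among them CDKB2;1, have none in the window.

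Transcripts of the mitotic machinery were in part lower in dvl1-1D than in wild type. Of the 32 genes, 12 fell and 0 rose (37.5% of the 32; limma on log2(RPKM + 1), Benjamini-Hochberg adjusted p under 0.05), against 30.8% of all 20223 genes called in either direction, 14% called lower and 16.7% called higher. Every role but the spindle proteins held at least 1 gene that fell: CDKB2;1 among the kinases, CYCB1;1, CYCB1;4, CYCB2;2 and CYCB2;4 among the B-type cyclins, CYCA2;3 among the A-type cyclins, and CKS2, AUR2, HIK, MAP65-3, CDC20.1 and MYB3R1. Changes were modest: the median over the 32 genes was -0.19 on the log2 scale, with a range from -0.34 to 0.21, beside 0.02 over all genes tested. Estimates were below 0 for 29 of the 32, beside 45.0% of all genes, and at an unadjusted p under 0.05 there were 17 lower and 1 higher (41.3% of all genes in either direction). Of the calls over all genes 54.4% were higher, and 44.3% after quantile normalization, under which 16 of the 32 were lower and 17.3% of all genes.

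Library by library, all 3 dvl1-1D libraries lay below all 3 wild type libraries for 17 of the 32 genes (53.1%), beside 20.9% of all genes, and above them for 1, CYCB2;3, beside 26.2% of all genes. For 8 of the 32 (25.0%) they lay below all 12 other libraries, beside 12.4% of all genes. Of the 5 groups, dvl1-1D had the lowest mean for 29 of the 32 genes, and the rtfl9 quintuple had the highest for 19 and the dvl1 quintuple for 10. Summed over the 32 genes, RPKM was 422 to 440 in dvl1-1D and 475 to 519 in wild type. In bulk RNA, fewer dividing cells and less of each transcript per dividing cell cannot be told apart. The replicates were independent biological samples per the series text, and 1 sample of each group had been left out by the authors as an outlier.

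**Figure D2:**
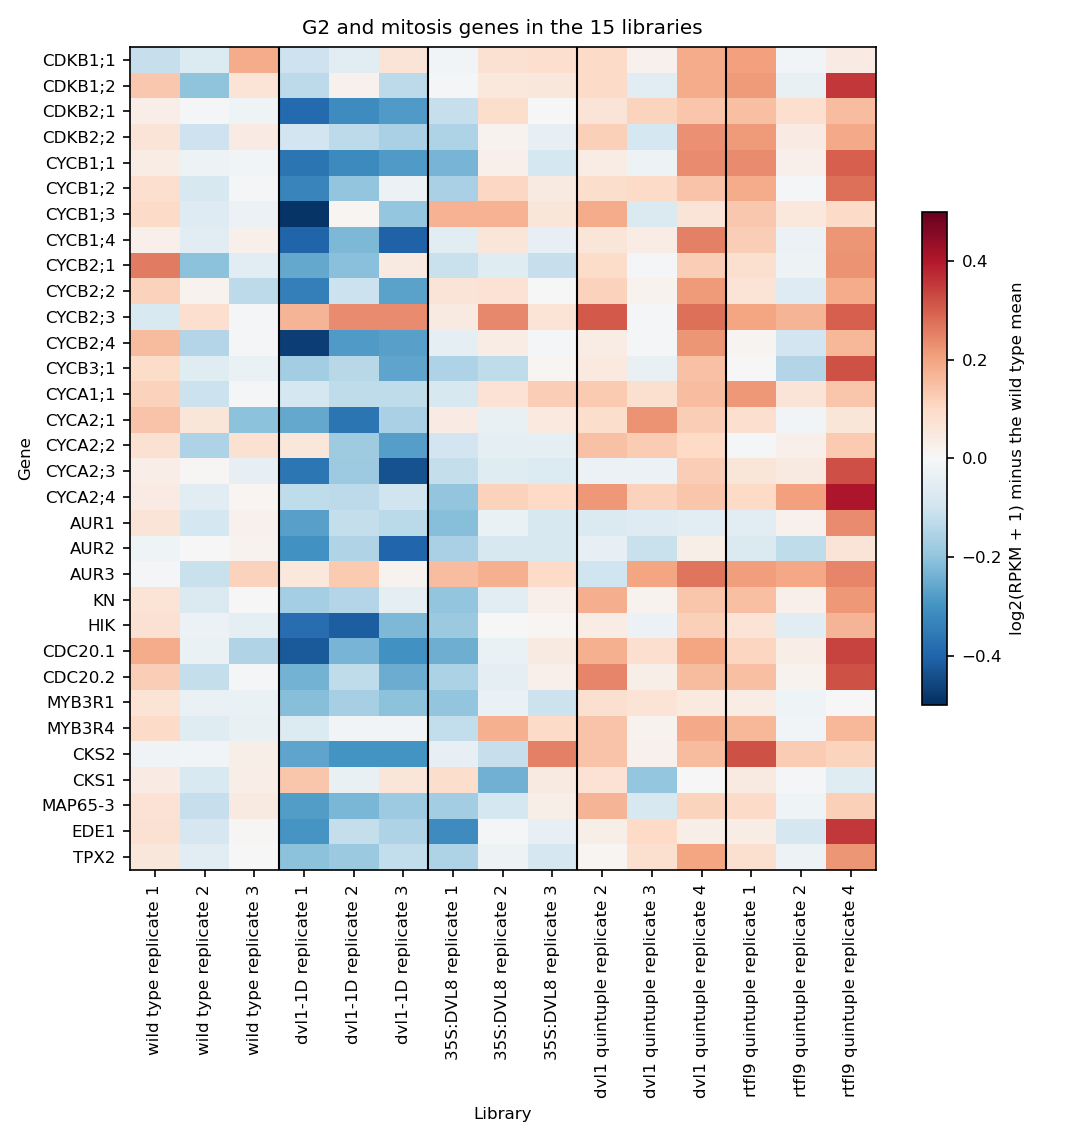
Log2(RPKM + 1) minus the wild type mean (colour) for the 32 genes (rows) in the 15 libraries (columns, vertical lines between groups). The dvl1-1D columns are blue for most genes, with medians of -0.26, -0.15 and -0.17, while rtfl9 quintuple replicate 4 is the reddest column, with a median of 0.20.

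Of the 4 CDKB kinases, 1 fell, CDKB2;1 (AT1G76540, chr1:28720328-28722550 in TAIR10.1). Its RPKM was 37.1, 36.0 and 35.7 in wild type, 27.5, 29.0 and 29.6 in dvl1-1D, 33.4, 38.6 and 36.3 in 35S:DVL8, 38.0, 39.2 and 40 in dvl1 quintuple plants and 40.4, 38.5 and 40.5 in rtfl9 quintuple plants. The dvl1-1D libraries were the 3 lowest of the 15 and overlapped no other group. Mean RPKM fell by 20.8% from 36.3 ± 0.751 to 28.7 ± 1.06 (SD, n = 3), a log2 fold change of -0.33 ± 0.05 (SE, adjusted p = 0.000262), the smallest p of the 32. Its close paralog CDKB2;2, with 86.6% identity of the coding sequence, had 18.2 ± 1.21 RPKM in wild type against 16.5 ± 0.36 in dvl1-1D (adjusted p = 0.225). The level ratio of CDKB2;1 to CDKB2;2 within a library was 1.63 to 1.83 in dvl1-1D and 1.91 to 2.15 in wild type. CDKB1;1 and CDKB1;2, the kinases that appear from S phase on, were at 12.1 ± 1.52 and 5.82 ± 0.812 RPKM in wild type against 11.7 ± 0.806 and 5.43 ± 0.393 in dvl1-1D (adjusted p of 0.781 and 0.602).

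Of the CKS pair, 1 fell. CKS2 (AT2G27970, chr2:11912151-11913425), the most abundant of the 32 transcripts per length, was at 48.2, 48.3 and 49.8 RPKM in wild type, 40.5, 39.4 and 39.5 in dvl1-1D, 47.4, 44.9 and 58.3 in 35S:DVL8, 54.0, 49.5 and 54.6 in dvl1 quintuple plants and 61.0, 53.4 and 52.7 in rtfl9 quintuple plants. Again the dvl1-1D libraries were the 3 lowest, and 35S:DVL8 replicate 3 stood well above its group. The log2 fold change was -0.29 ± 0.08 (SE, adjusted p = 0.0142). CKS1, which lies next to it on the chromosome, had 43.4 ± 1.98 RPKM in wild type against 45.1 ± 2.74 in dvl1-1D (adjusted p = 0.669). CKS2 exceeded CKS1 in every library of the other 4 groups, by a ratio of 1.03 to 1.36, and was below it in all 3 dvl1-1D libraries, at 0.848 to 0.932. CKS2 shares 67 bases with a neighbour on the same strand, AT2G27980, so some of its reads could belong to either. Whether paralogs changed by different amounts was not tested.

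The 9 B-type cyclins, the regulatory subunits that define mitotic entry and exit, held 4 of the 12 called genes, and their changes ran from -0.34 to 0.21 with a median of -0.23. CYCB1;1 (AT4G37490, chr4:17621886-17624308), the cyclin most used to mark cells at G2 and mitosis, was at 11.1, 10.6 and 10.7 RPKM in wild type, 8.17, 8.47 and 8.69 in dvl1-1D, 9.03, 11 and 10.1 in 35S:DVL8, 11.1, 10.6 and 12.9 in dvl1 quintuple plants and 12.9, 11 and 13.5 in rtfl9 quintuple plants. CYCB1;4 (AT2G26760, chr2:11401118-11403433) was at 12.1, 11.4 and 12.1 in wild type, 8.75, 10.0 and 8.72 in dvl1-1D, 11.4, 12.4 and 11.5 in 35S:DVL8, 12.4, 12.2 and 14.3 in dvl1 quintuple plants and 13.0, 11.6 and 14 in rtfl9 quintuple plants. For both cyclins the dvl1-1D libraries were below the other 12, and the rtfl9 quintuple was spread most widely. CYCB1;1 fell by 22.0% (log2 fold change -0.32 ± 0.08 SE, adjusted p = 0.00941) and CYCB1;4 fell by 22.5% (-0.34 ± 0.08 SE, adjusted p = 0.0042).

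CYCB2;4 (AT1G76310, chr1:28627694-28630789) was at 12.7, 10.1 and 11.2 RPKM in wild type, 7.87, 9.1 and 9.19 in dvl1-1D, 10.9, 11.6 and 11.2 in 35S:DVL8, 11.6, 11.2 and 13.3 in dvl1 quintuple plants and 11.4, 10.5 and 12.8 in rtfl9 quintuple plants. CYCB2;2 (AT4G35620, chr4:16901596-16904001) was at 9.23, 8.56 and 7.62 in wild type, 6.46, 7.76 and 6.84 in dvl1-1D, 8.88, 8.93 and 8.45 in 35S:DVL8, 9.22, 8.56 and 9.96 in dvl1 quintuple plants and 8.90, 8.04 and 9.73 in rtfl9 quintuple plants. CYCB2;4 separated dvl1-1D from all other libraries, whereas for CYCB2;2 wild type replicate 3 fell below dvl1-1D replicate 2. Their log2 fold changes were -0.34 ± 0.09 (SE, adjusted p = 0.0104) and -0.24 ± 0.08 (SE, adjusted p = 0.043). The call of CYCB2;4 was lost without wild type replicate 1 (adjusted p = 0.0529) or dvl1-1D replicate 1 (0.0518). That of CYCB2;2 was lost without wild type replicate 1 (0.164) or 2 (0.103), or without dvl1-1D replicate 1 (0.156) or 3 (0.103). It was also lost with no filter on low values (0.0671), with only the 2 groups in the fit (0.0652) and with voom (0.0707), which makes 7 of 15 alternatives.

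CYCB2;3, the paralog of CYCB2;4 with 81.8% coding identity, was at 7.37, 8.35 and 7.79 RPKM in wild type against 8.93, 9.4 and 9.41 in dvl1-1D. The groups did not overlap, with dvl1-1D above, and the change of 0.21 ± 0.08 (SE) missed the threshold (adjusted p = 0.0615). CYCB2;3 was called higher under 3 of the 15 alternatives (lowest adjusted p = 0.0323). CYCB2;3 and AUR3 alone had their lowest mean in wild type, and the means of CYCB2;3 in 35S:DVL8 and in the dvl1 and rtfl9 quintuple mutants were 8.59 ± 0.725, 9.14 ± 1.17 and 9.3 ± 0.48. The ratio of CYCB2;4 to CYCB2;3 was 1.21 to 1.72 in wild type, 0.882 to 0.976 in dvl1-1D and 1.17 to 1.44 in the 9 libraries of the other 3 lines. CYCB1;2, the most abundant B-type cyclin and the gene with the most MSA cores, had 29.7 ± 1.74 RPKM in wild type against 26.0 ± 2.79 in dvl1-1D (adjusted p = 0.123; 0.0448 without dvl1-1D replicate 3). CYCB1;3 had 9.50 ± 0.658 and 8.05 ± 1.55 (adjusted p = 0.109; 0.0165 without dvl1-1D replicate 2). CYCB2;1 and CYCB3;1 were lower in mean and not called (adjusted p of 0.393 and 0.165).

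Of the 5 A-type cyclins, which act from S phase into mitosis, CYCA2;3 (AT1G15570, chr1:5361865-5365559), known as a brake on entry into endoreduplication, was the 1 called. It was at 14.8, 14.5 and 14 RPKM in wild type, 11, 12.6 and 10.4 in dvl1-1D, 13.2, 13.8 and 13.7 in 35S:DVL8, 14.1, 14.1 and 15.8 in dvl1 quintuple plants and 15.1, 14.9 and 18.3 in rtfl9 quintuple plants. The dvl1-1D libraries were the 3 lowest, and rtfl9 quintuple replicate 4 was the highest. The log2 fold change was -0.33 ± 0.08 (SE, adjusted p = 0.00591). CYCA2;1, the least abundant of the 32, had 1.63 ± 0.319 RPKM in wild type against 1.19 ± 0.155 in dvl1-1D (adjusted p = 0.0618; 0.017 without wild type replicate 3). CYCA1;1, CYCA2;2 and CYCA2;4 had log2 fold changes between -0.13 and -0.12 and were not called.

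The Aurora kinases, which act on spindles, centromeres and the cell plate, held 1 gene that fell among 3. AUR2 (AT2G25880, chr2:11034652-11038191) was at 8.66, 8.83 and 8.94 RPKM in wild type, 6.95, 7.85 and 6.46 in dvl1-1D, 7.77, 8.29 and 8.29 in 35S:DVL8, 8.53, 8.09 and 9.02 in dvl1 quintuple plants and 8.34, 7.99 and 9.26 in rtfl9 quintuple plants. Wild type and dvl1-1D did not overlap, while dvl1-1D replicate 2 exceeded 35S:DVL8 replicate 1. The log2 fold change was -0.28 ± 0.07 (SE, adjusted p = 0.00718). AUR2 overlaps a gene on the opposite strand over 877 bases, AT2G25890, which is listed at 0 in the table. AUR1 (-0.17, adjusted p = 0.0843) and AUR3 (0.07, adjusted p = 0.601) were not called.

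Neither of the spindle proteins was called. TPX2 (AT1G03780, chr1:947520-951850), which nucleates spindle microtubules and binds Aurora kinase, was at 15.3, 14.1 and 14.7 RPKM in wild type, 12.6, 12.8 and 13.4 in dvl1-1D, 13.1, 14.4 and 13.8 in 35S:DVL8, 14.8, 15.6 and 17.0 in dvl1 quintuple plants and 15.6, 14.4 and 17.3 in rtfl9 quintuple plants. All dvl1-1D libraries were below all wild type libraries, and the change of -0.17 ± 0.07 (SE) missed the threshold (adjusted p = 0.0661). TPX2 was called lower under 5 of the 15 alternatives (lowest adjusted p = 0.0272). EDE1, a microtubule-associated protein of the spindle, had 4.40 ± 0.298 RPKM in wild type against 3.74 ± 0.303 in dvl1-1D (adjusted p = 0.209).

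Of the 3 cytokinesis genes, 2 fell. HIK (AT1G18370, chr1:6319450-6324378), the kinesin that expands the phragmoplast, was at 17.8, 16.5 and 16.3 RPKM in wild type, 12.7, 12.4 and 14.3 in dvl1-1D, 14.7, 16.9 and 17.0 in 35S:DVL8, 17.3, 16.5 and 18.4 in dvl1 quintuple plants and 17.7, 16.2 and 19.1 in rtfl9 quintuple plants. MAP65-3 (AT5G51600, chr5:20960779-20964537), which cross-links microtubules at the phragmoplast midline, was at 17.1, 14.9 and 16.8 in wild type, 13.2, 13.7 and 14.2 in dvl1-1D, 14.3, 15.2 and 16.6 in 35S:DVL8, 18.4, 15.3 and 17.6 in dvl1 quintuple plants and 17.4, 16.0 and 17.7 in rtfl9 quintuple plants. In both genes the dvl1-1D libraries were below the other 12, for MAP65-3 by a narrow margin to 35S:DVL8 replicate 1. HIK fell by 22.1% (log2 fold change -0.34 ± 0.07 SE, adjusted p = 0.00354) and MAP65-3 fell by 15.5% (-0.23 ± 0.07 SE, adjusted p = 0.0317). The call of MAP65-3 was lost without wild type replicate 1 (0.113) or 3 (0.102), or without dvl1-1D replicate 1 (0.101) or 2 (0.0686). KN, the syntaxin that fuses vesicles into the cell plate, had 37.1 ± 1.91 RPKM in wild type against 34.1 ± 1.60 in dvl1-1D (adjusted p = 0.192). KN shares 464 bases with AT1G08550 on the opposite strand, at a mean of 17.6 RPKM, and without strand their reads cannot be told apart.

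CDC20.1 (AT4G33270, chr4:16044169-16046937) was at 37.3, 31.9 and 29.4 RPKM in wild type, 24.2, 27.7 and 26.3 in dvl1-1D, 27.5, 31.9 and 33.8 in 35S:DVL8, 37.1, 34.7 and 37.6 in dvl1 quintuple plants and 35.3, 33.5 and 41.6 in rtfl9 quintuple plants. The dvl1-1D libraries were below wild type, and 35S:DVL8 replicate 1 lay among them. The log2 fold change was -0.32 ± 0.10 (SE, adjusted p = 0.0227), and the call was lost without wild type replicate 1 (adjusted p = 0.109) or dvl1-1D replicate 1 (0.0904). CDC20.2, its tandem neighbour, had a change of -0.20 ± 0.08 (SE, adjusted p = 0.0833). The coding sequences are 97.5% identical, with an identical run of 314 bases, so the split of reads between them is uncertain.

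MYB3R1 (AT4G32730, chr4:15790133-15796114), one of the factors that act on the MSA element, was at 11.9, 11 and 11 RPKM in wild type, 9.61, 9.96 and 9.65 in dvl1-1D, 9.71, 11 and 10.4 in 35S:DVL8, 12, 11.9 and 11.7 in dvl1 quintuple plants and 11.6, 11.1 and 11.3 in rtfl9 quintuple plants. Wild type and dvl1-1D did not overlap, and 35S:DVL8 replicate 1 lay within the range of dvl1-1D. The log2 fold change was -0.19 ± 0.05 (SE, adjusted p = 0.00987). MYB3R1 shares 214 bases with AT4G32750 on the opposite strand, at a mean of 6.28 RPKM. MYB3R4 had 9.88 ± 0.646 RPKM in wild type against 9.62 ± 0.218 in dvl1-1D (adjusted p = 0.784). The MSA core was in 7 of the 12 windows of the genes that fell (58.3%) and in 14 of the 20 others (70.0%). CDKB2;1, CYCA2;3, MYB3R1, CYCB2;4 and CDC20.1 fell without a core in the window.

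**Figure D3:**
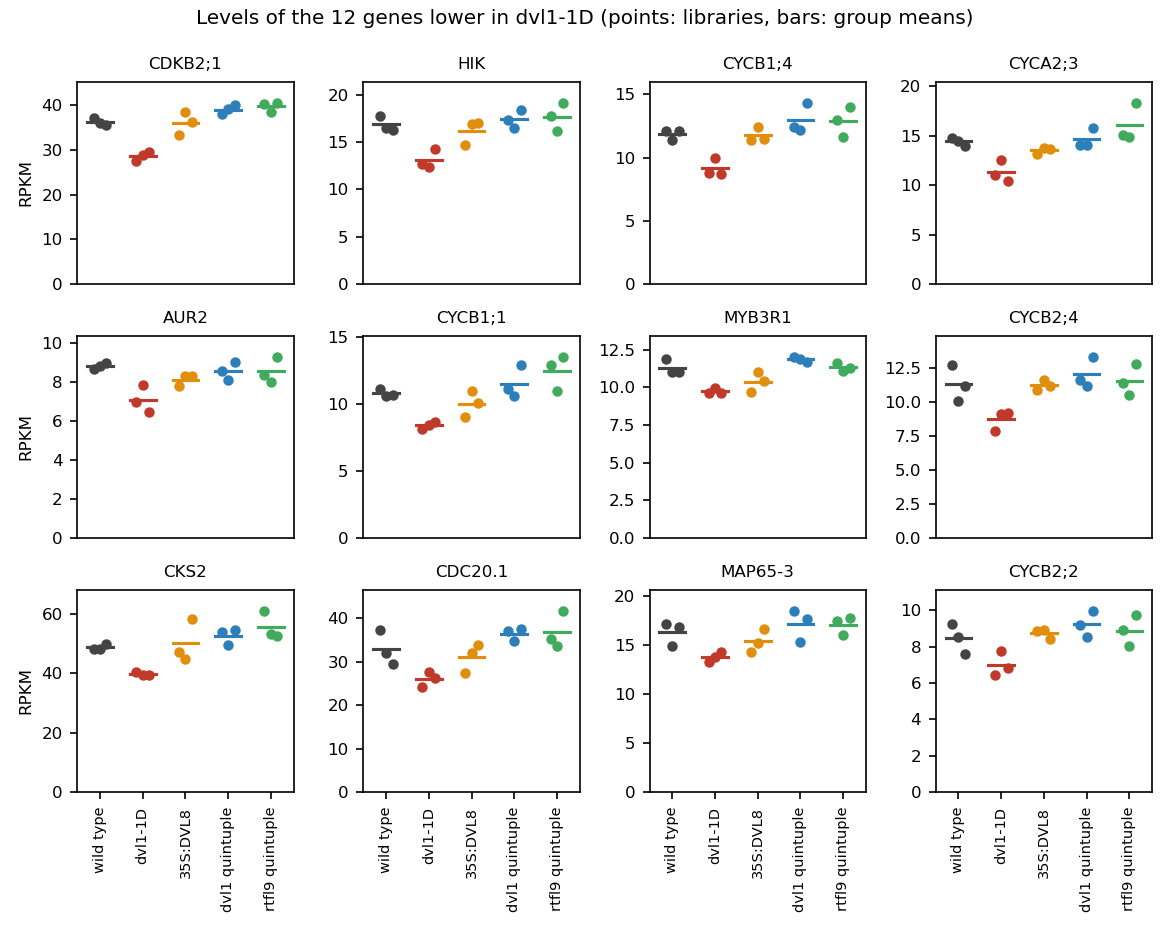
RPKM (y axis, from 0) of the 12 genes lower in dvl1-1D in the 5 groups (x axis), with 1 point per library and a bar at each group mean. The dvl1-1D points lie below those of wild type in 11 of the 12 panels, the exception being CYCB2;2.

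No gene of the 32 passed the test in the other 3 lines. In 35S:DVL8, 0 of the 32 genes were called against wild type by limma, beside 0.138% of all genes, with 1 lower at an unadjusted p under 0.05 (10.5% of all genes in either direction) and 0 called by voom on reads recovered from the RPKM. Over all 20223 genes voom called 241 in this line, 193 of them lower. The median change was -0.05, beside 0.00 over all genes, with 21 of the 32 below 0 and 52.1% of all genes below 0. The smallest adjusted p was that of MYB3R1, at -0.11 ± 0.05 (SE, adjusted p = 0.444). The lowest and highest ends of the 95% intervals of the 32 changes were -0.35 and 0.35. The median was 0.005 without wild type replicate 1 and 0.007 without 35S:DVL8 replicate 1, so its sign rested on either library. For 3 of the 32 (9.38%) all 35S:DVL8 libraries were below all wild type libraries, beside 9.35% of all genes.

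In the dvl1 quintuple mutant 0 of the 32 were called by limma (0.0297% of all genes), with 1 higher at an unadjusted p under 0.05 (7.75% of all genes in either direction) and 0 called by voom (5 of all 20223 genes). Estimates were above 0 for 29 of the 32, beside 55.9% of all genes, and the median was 0.10, beside 0.01. It was 0.05 without dvl1 quintuple replicate 4 and 0.06 without wild type replicate 2. CYCB2;3 had the smallest adjusted p, at 0.19 ± 0.08 (SE, adjusted p = 0.606). In the rtfl9 quintuple 0 of the 32 were called by limma (1.23% of all genes), with 7 higher at an unadjusted p under 0.05 (15.8% of all genes in either direction) and 0 called by voom (353 of all 20223 genes). With a replicate block limma called 9 of all 20223 genes in this line. There 30 of the 32 estimates were above 0, beside 57.0% of all genes, and the median was 0.10, beside 0.02. CDKB2;1 was at 0.13 ± 0.05 (SE, adjusted p = 0.214) and CYCA2;4 at 0.24 ± 0.09 (SE, adjusted p = 0.221). The intervals reached up to 0.37 in dvl1 quintuple plants and 0.43 in rtfl9 quintuple plants.

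All rtfl9 quintuple libraries were above all wild type libraries for 6 genes (18.8%, beside 12% of all genes), and all dvl1 quintuple libraries for 5 (15.6%, beside 9.3%). Replicate 4 of the rtfl9 quintuple stood highest, at a median of 0.20 over the 32 genes against 0.10 and -0.01 for replicates 1 and 2, and without it the median change of the line was 0.06, against 0.16 without replicate 2. Replicate 4 was also the highest of the dvl1 quintuple, at 0.14 against 0.09 and 0.02 for replicates 2 and 3. Among the libraries used only the quintuple mutants had a replicate 4, and an effect of that number was not tested. All 9 tested tapetum markers had estimates above 0 in both quintuple mutants, with median changes of 0.43 for the dvl1 and 0.42 for the rtfl9 quintuple, and 0 were called by limma or voom, with 2 and 4 higher at an unadjusted p under 0.05. By library their median was 0.33, 0.32 and 0.48 in the first and 0.10, 0.17 and, in replicate 4, 0.96 in the second. The part of these markers in the levels of the 32 genes was not tested. All 4 comparisons with wild type share the wild type libraries. Directly compared, the quintuple mutants gave 0 calls among the 32 by limma (0.0148% of all genes), 0 at an unadjusted p under 0.05 (4.39% of all genes) and 0 by voom (3 of all 20223 genes). The median difference was -0.02 beside 0.00 over all genes, and the 95% intervals lay between -0.33 and 0.32.

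Whether the 2 overexpression lines differed was tested directly. Against 35S:DVL8, 9 of the 32 genes were lower in dvl1-1D and 0 higher (28.1%, beside 32.4% of all genes called in either direction 13.8% called lower and 18.6% called higher), with 13 lower and 0 higher at an unadjusted p under 0.05 (43.0% of all genes in either direction). Of the calls over all genes 57.3% were higher, and 44.1% after quantile normalization. The 9 were CDKB2;1, CYCB1;3, CYCB1;4, CYCB2;2, CYCB2;4, CYCA2;1, CYCA2;3, CKS2 and HIK. CDKB2;1 differed by -0.32 ± 0.05 (SE, adjusted p = 0.000319), CKS2 by -0.32 ± 0.08 (SE, adjusted p = 0.00752) and CYCB1;3 by -0.36 ± 0.10 (SE, adjusted p = 0.0156). The median difference was -0.13, beside 0.03 over all genes, and in 12 of the 32 (37.5%, beside 18.4% of all genes) every dvl1-1D library was below every 35S:DVL8 library.

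The number called against 35S:DVL8 rested partly on dvl1-1D replicate 1. Without it 4 of the 32 were lower, CDKB2;1, CYCB1;4, HIK and CKS2, beside 2278 of all 20223 genes, a similar share. MYB3R1, AUR2, CYCB1;1, CDC20.1 and MAP65-3, which were lower than in wild type, were not called against 35S:DVL8. This comparison and that with wild type share the dvl1-1D libraries.

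**Figure D4:**
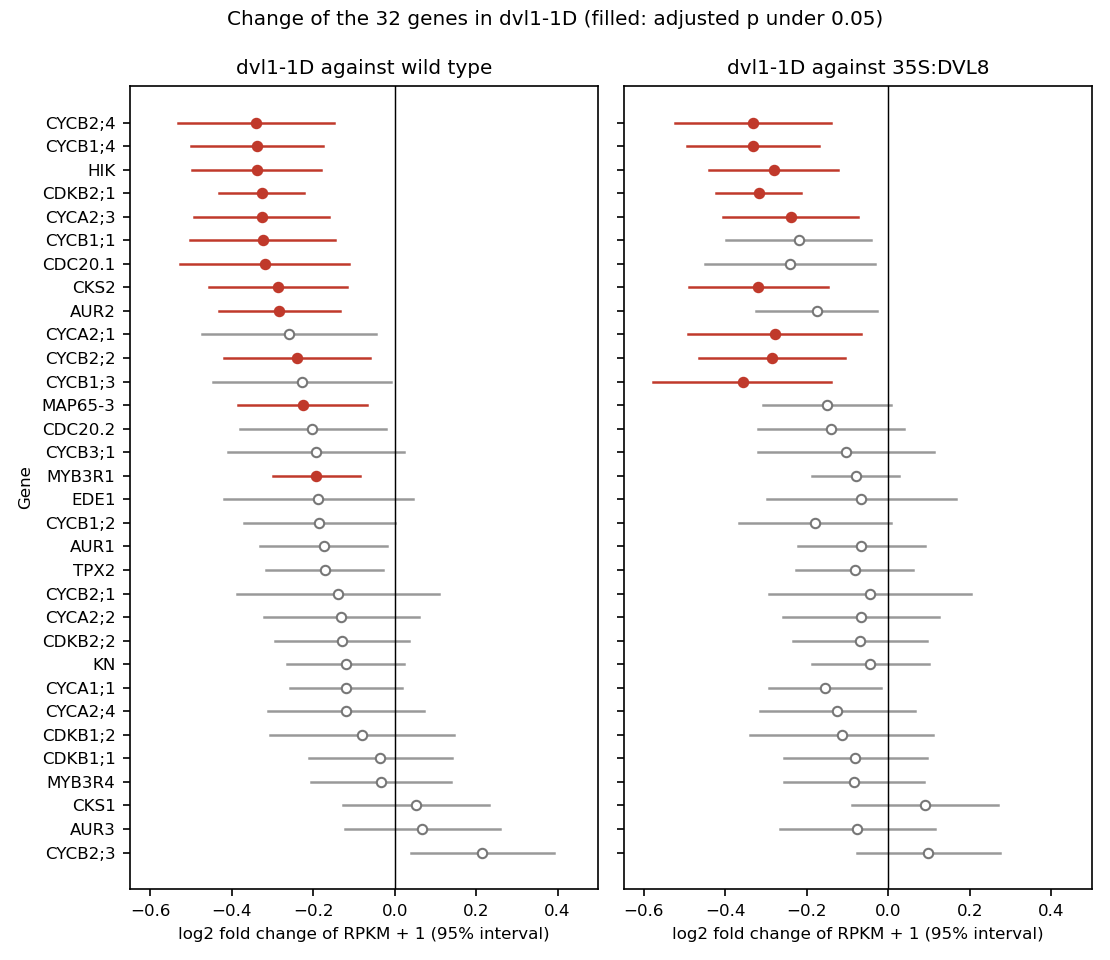
Log2 fold change of RPKM + 1 (x axis) with its 95% interval for the 32 genes (y axis, ordered by the change against wild type), for dvl1-1D against wild type (left) and against 35S:DVL8 (right), filled in red where the adjusted p is under 0.05. There are 12 filled points on the left and 9 on the right, all below 0.

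Genes of the wider cell cycle fell in dvl1-1D as well, at G2 and mitosis and at G1 and S. Of the 40 tested genes of the other G2 and mitosis list, 14 fell and 1 rose, with a median of -0.16. Over all genes tested, 14% fell and 16.7% rose in this comparison, which is the background of each list count in dvl1-1D against wild type. AT2G28620 fell by 0.29 on the log2 scale (SE 0.05, adjusted p = 0.00089), the spindle checkpoint gene MAD2 fell by 0.34 (SE 0.07, adjusted p = 0.00316) and MAP65-4, a microtubule cross-linker, fell by 0.22 (SE 0.06, adjusted p = 0.00952). UBC19, a ubiquitin-conjugating enzyme expressed in dividing cells, rose by 0.19 (SE 0.04, adjusted p = 0.00117). AT3G54630, from the same list, was listed at 0 in all 15 libraries.

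Of the 23 genes of G1 and S phase, 12 fell and 0 rose, with a median of -0.22. TSO2 and RNR1, the small and the large subunit of ribonucleotide reductase, fell by 0.49 (SE 0.06, adjusted p = 3.6e-05) and 0.36 (SE 0.06, adjusted p = 0.000522), and the replication helicase genes MCM2 and MCM7 (named PRL in the reference) fell by 0.21 (SE 0.05, adjusted p = 0.00488) and 0.23 (SE 0.06, adjusted p = 0.00929). Summed RPKM of the G1 and S list was 356 to 403 in dvl1-1D and 440 to 470 in wild type. The lowest median of this list was that of dvl1-1D replicate 3, at -0.34. In the APC/C and endocycle list 1 of 16 fell and 0 rose, a share below that of all genes in both directions. It was CCS52B, an APC/C activator, at -0.24 ± 0.08 (SE, adjusted p = 0.0365). UVI4, an inhibitor of the complex, was at -0.26 ± 0.10 (SE, adjusted p = 0.0603), DEL1, a repressor of endocycle entry, at -0.26 ± 0.10 (SE, adjusted p = 0.0648) and CDC27A at 0.17 ± 0.08 (SE, adjusted p = 0.0991).

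A further list held other MYB3R factors and their partners in the DREAM complex, which couples cell cycle transcription to retinoblastoma protein. Of its 9 tested genes 1 rose and 0 fell, again below the shares of all genes. This was E2FB, at 0.26 ± 0.09 (SE, adjusted p = 0.0476). ALY2 was at -0.20 ± 0.08 (SE, adjusted p = 0.0842), MYB3R5 at 0.17 ± 0.10 (SE, adjusted p = 0.211) and RBR1, the retinoblastoma protein itself, at -0.10 ± 0.06 (SE, adjusted p = 0.231). In 35S:DVL8 and both quintuple mutants, 0 genes of these 4 lists were called against wild type by limma or by voom. At an unadjusted p under 0.05, the rtfl9 quintuple had 8 higher genes of G1 and S and 4 of the other G2 and mitosis list, the dvl1 quintuple 2 and 4, and 35S:DVL8 1 lower of G1 and S and 1 in each direction of the other G2 and mitosis list. The shares of all genes at that p, in either direction, were 15.8%, 7.75% and 10.5% in these 3 lines. Against 35S:DVL8, 13.8% of all genes were called lower in dvl1-1D and 18.6% higher. Of the other G2 and mitosis genes, 8 of 40 were lower and 1 was higher. Of G1 and S 11 of 23 were lower, and of the APC/C and endocycle list 1 of 16. Of the 9 other MYB3R factors and partners 0 were called. Those with the smallest adjusted p there were UBC19 (0.20, adjusted p = 0.000737), MAP65-4 (-0.30, 0.00135), MAD2 (-0.32, 0.00419) and AT2G28620 (-0.19, 0.0129), then DEL1 (-0.31, 0.0312), and TSO2 (-0.47, 4.4e-05), RNR1 (-0.34, 0.000762), MCM2 (-0.20, 0.00596) and CDC45 (-0.36, 0.00951).

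No marker of the cell types that could carry these transcripts was called lower in dvl1-1D against wild type, by limma or by voom. Of 7 tested shoot meristem markers 2 rose and 0 fell, and their summed RPKM was 150 to 162 against 136 to 146 in wild type. STM, which keeps meristem cells undifferentiated, was at 0.31 ± 0.05 (SE, adjusted p = 0.000393) and CLV1, a receptor of the stem cell signal, at 0.26 ± 0.08 (SE, adjusted p = 0.0267). The 5 tested meiocyte markers had 0 calls by limma and by voom, 1 higher at an unadjusted p under 0.05 and all estimates above 0, and the summed RPKM of all 11 was 19.8 to 22.6 against 17.5 to 19.3. The other 6 of these 11 missed the filter. Ovule markers had 0 of 6 called by limma and 1 higher by voom, with 3 higher and 1 lower at an unadjusted p under 0.05 (summed RPKM of all 7 of 72.1 to 106 against 71.3 to 75.2), and tapetum markers 0 of 9 by limma, by voom and at an unadjusted p under 0.05 (summed RPKM of all 10 of 195 to 291 against 247 to 294).

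Mature pollen markers had 2 of 10 higher and 0 lower in dvl1-1D, with summed RPKM of 838 to 1120 against 785 to 890. Green tissue markers had 1 of 7 higher and 0 lower. Both shares are near the 16.7% of all genes called higher. Summed RPKM of the pollen markers was 489 to 704 in 35S:DVL8, 600 to 717 in dvl1 quintuple plants and 536 to 607 in the rtfl9 quintuple. In the rtfl9 quintuple 4 of 10 were called lower, beside 0.91% of all genes. Over all genes, lower calls in this line fell from 184 to 2 with a replicate block and to 1 without wild type replicate 3. The 4 pollen calls could not all have held in those fits. By voom 5 of the 10 were lower, beside 251 of 20223 genes. Against 35S:DVL8, dvl1-1D had 7 of 10 pollen, 2 of 5 meiocyte, 2 of 6 ovule and 2 of 7 meristem markers higher and 1 of 7 green tissue markers lower. Over all genes 18.6% were called higher and 13.8% lower in this comparison. No marker was listed at 0 in any library other than CLV3 and, in 1 library, UFO. Within dvl1-1D, replicate 1 had the lowest medians of the 32 genes (-0.26) and of the tapetum markers (-0.40), and replicate 2 the highest of the ovule (0.51) and pollen markers (0.33). The part of these markers in the differences of the 32 genes was not tested.

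**Figure D5:**
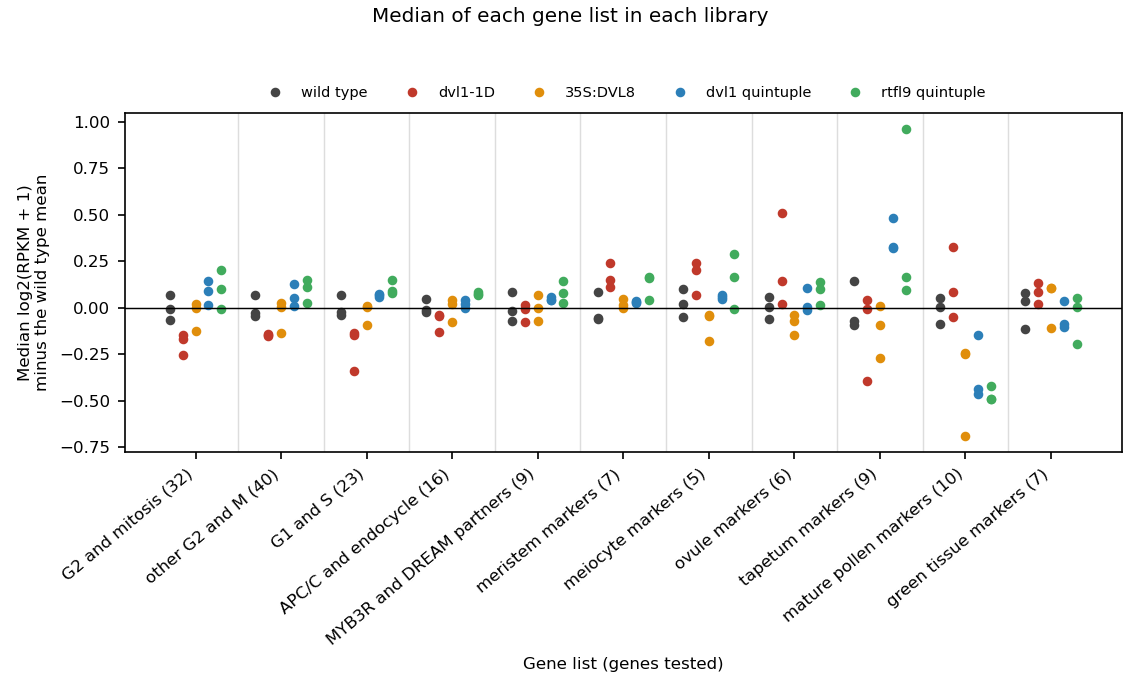
Median of log2(RPKM + 1) minus the wild type mean (y axis) over the tested genes of each list (x axis, number tested in brackets), with 1 point per library coloured by group. In dvl1-1D the 3 medians of the 32 genes lie between -0.26 and -0.15 and those of the G1 and S list between -0.34 and -0.14, while the meristem markers lie between 0.11 and 0.24.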

How the data were processed

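RNA of inflorescences was sequenced as paired-end reads. The deposited RPKM values were made by the authors with cutadapt, HISAT2 and HTSeq, per the submitters' processing notes, and their table's name gives unstranded counting, so reads of overlapping genes on opposite strands cannot be told apart. The genome build and annotation behind the RPKM are not given in the sources used here. Before deposit 5 of 20 samples were dropped by the authors as outliers, with no criterion named in the labels.

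The RPKM of all 29911 genes above 0 were whole multiples of 1 read within 0.005 reads, which gave the depth and the reads used with voom. The test took the 20223 genes that reached 1 RPKM in 3 or more libraries. A limma model (limma 3.58.1, R 4.3.3) with a mean per group and a mean-variance trend was fitted to log2(RPKM + 1) over all 15 libraries, for 6 comparisons, with Benjamini-Hochberg adjustment over all tested genes and a threshold of 0.05. Every adjusted p is from this two-sided limma test unless voom is named, and fold changes on this scale understate those of low genes. The script was tested on simulated data. Alternatives were another pseudocount, no filter, 2 other scalings, only the groups compared, no trend, voom, a replicate block and leaving out libraries.

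Of the table's identifiers, 37051 matched the RefSeq TAIR10.1 annotation, from which names, positions and sequences were taken by locus identifier. The 32 genes, the lists and the rule for named genes (values in every library for members that passed against wild type and for 1 more of any role not shown, and up to 4 genes of each other list by adjusted p) were chosen with earlier results of these data known. The label protocol also names flowers after anthesis, so the mix of stages is uncertain.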

Additional observations from a re-analysis of the deposited data

Results flagged for a closer look

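For 9 genes the change against wild type differed between the overexpression lines in the direct limma test, with dvl1-1D minus 35S:DVL8 negative in each. They were 28.1% of the 32, beside 32.4% of all genes called in either direction and 13.8% called lower. On the log2 scale the difference was -0.318 for CDKB2;1, -0.332 for CYCB1;4, -0.319 for CKS2, -0.281 for HIK and -0.333 for CYCB2;4. It was -0.358 for CYCB1;3, -0.285 for CYCB2;2, -0.24 for CYCA2;3 and -0.279 for CYCA2;1. The adjusted p ran from 0.000319 for CDKB2;1 to 0.0446 for CYCA2;1. CYCB1;3 and CYCA2;1 are in this set and not among the 12 genes lower than in wild type.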

How the results depend on the processing

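Against wild type, dvl1-1D had 12 of the 32 genes called, and between 8 and 16 under all alternatives: 16 with median-of-ratios or quantile scaling, 11 with voom or no filter, 13 without a trend or with the 2 groups alone, and 8 to 12 when 1 library was left out, with 8 without wild type replicate 1 or dvl1-1D replicate 1. Of all 20223 genes, 2837 were lower in the main fit, 3362 and 3491 with the 2 scalings and 2704 with voom. Lower genes were 2639 of 29911 with no filter and 2742 of 20223 without a trend. There were 2113 lower without wild type replicate 1 and 2228 without dvl1-1D replicate 1. With the 2 groups alone, 12 of the 32 were lower and 1 was higher, beside 2798 and 3564 of all genes. With 35S:DVL8 replicate 2 and rtfl9 quintuple replicate 4 both left out, 14 were lower and 1 was higher. Over all genes 3019 were lower and 3703 higher in that fit. CYCB2;2, MAP65-3, CYCB2;4 and CDC20.1 lost their call under at least 1 of the 15 alternatives and the other 8 under none. Against 35S:DVL8 the count was 9, with 15 under quantile normalization and 4 (without dvl1-1D replicate 1) to 12 (without 35S:DVL8 replicate 1) when 1 library was left out, and the median ranged from -0.194 to -0.099 among the latter. Over all genes in that comparison, 17.7% were lower under quantile normalization. Lower genes were 2278 of 20223 without dvl1-1D replicate 1 and 2536 without 35S:DVL8 replicate 1. CDKB2;1, CYCB1;4, HIK and CKS2 kept the call against 35S:DVL8 under all 15 alternatives. The estimate of CDKB1;1 against wild type, not called, ran from -0.092 to 0.058 and that of MYB3R4 from -0.064 to 0.015 when 1 library was left out. The extended MSA element was in 8 promoters where the core was in 21. As a set, same-numbered libraries of different groups did not deviate together (23 pairs, median correlation -0.007, range -0.255 to 0.381, 3 over 0.1). The highest value, 0.381, was that of replicate 4 of the dvl1 quintuple with replicate 4 of the rtfl9 quintuple. Among pairs of different number the highest was 0.262. Whether these replicate 4 libraries share an effect of their number was not tested. With a replicate block, dvl1-1D had 14 calls against wild type (13 lower and 1 higher, CYCB2;3) and 9 against 35S:DVL8, and the other comparisons had 0. Over all 20223 genes the block gave 2841 lower and 3487 higher against wild type, and 2789 lower against 35S:DVL8. The medians with the block were -0.19 and -0.13 in these comparisons, 0.058 in the dvl1 quintuple (0.097 without it), 0.066 in the rtfl9 quintuple (0.102 without it), -0.047 in 35S:DVL8 and -0.017 between the quintuple mutants. The cause of these shifts was not tested. The 3 libraries a group limit what can be detected.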
